A study of Mus musculus with 9 samples.

Results

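The genes described here are 37 lysosomal enzymes, their cofactors and lysosomal membrane proteins, with the transcription factor gene Tfeb among them, out of 19938 genes measured in mouse brain. They were taken from a fixed list of names that leaves out the cathepsins. The list was chosen with earlier results of these data known. Each gene is represented by the probe set that names it alone, and for Arsb, the only member with more than 1, by the probe set with the highest mean over all arrays. All 37 had such a probe set. None was left out for a low value.

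Lysosomes are acidic organelles in which hydrolases take apart sugars, lipids and proteins that arrive by endocytosis, phagocytosis or autophagy. Most of the enzymes are brought there by the mannose 6-phosphate route, membrane glycoproteins such as LAMP1 and LAMP2 line the organelle, and TFEB is a transcription factor known to act on many lysosomal genes. In the brain both neurons and microglia, the resident macrophages, depend on these enzymes, and loss of single members causes lysosomal storage diseases with neurodegeneration.

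RNA from brain tissue, called cortex in the description of the series, was hybridised to 9 arrays, 3 per group. The wild-type mice were B6SJLF1/J and received PBS by intraperitoneal injection. The 5xFAD mice, a transgenic model of Alzheimer disease driven by the neuronal Thy1 promoter, received either PBS (vehicle) or human amylin, a hormone of the pancreatic beta cell. Injections were given daily for 10 weeks and the mice were about 5 months old. The replicates are labelled as biological, without a statement on cages, litters or batches. All values are log2 intensities, so a difference of 1 is a doubling. Array medians ran from 5.71 to 5.79, and the number of arrays limits the precision. A gene was called changed when its limma p, adjusted by Benjamini-Hochberg over all 19938 genes, was under 0.05. Adjusted p values below come from that fit unless an alternative, a left-out array or another fit is named.

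Markers of other cell types and of brain regions differed between the same arrays. Of 15 measured markers of microglia and brain macrophages 14 rose in vehicle 5xFAD mice. Relative to wild type the mean of that list lay between 1.07 and 1.67 on the vehicle arrays and between 0.98 and 1.43 on the amylin arrays, against -0.01 to 0.01 on the wild-type arrays. All 7 striatal markers rose (list mean 1.58 to 1.80 on the vehicle arrays and 1.57 to 1.71 on the amylin arrays), 5 of 7 hippocampal markers fell (-0.96 to -0.88 and -0.95 to -0.86) and 7 of 8 thalamic markers fell (-1.003 to -0.80 and -1.14 to -0.55). The mean of 9 astrocyte markers was 0.12 to 0.35 on the vehicle arrays and 0.14 to 0.17 on the amylin arrays, against -0.06 to 0.08 in wild type. Only 1 of the 9 was called higher on vehicle, Gfap, the filament protein of reactive astrocytes. It rose by 1.63 ± 0.14 log2 (SE, adjusted p = 0.000258). Aldoc fell by 0.22, and the median difference of the 9 on vehicle was 0.02. The mean of 9 markers of endothelium and pericytes was 0.16 to 0.29 and 0.09 to 0.19, against -0.07 to 0.07, with 1 of 9 called on vehicle. The mean of 8 olfactory bulb markers was 0.25 to 1.82 on the vehicle arrays and 0.62 to 1.70 on the amylin arrays, against -0.19 to 0.19 in wild type. On vehicle 0 of the 8 were called, with 5 higher at an unadjusted p under 0.05 by limma, and under amylin 2 rose. The mean of 7 markers of the cerebral cortex, the region that the description of the series names, stayed between -0.15 and 0.16. Within that list the markers moved in both directions on vehicle, from -0.62 to 0.57. Only Fezf2 was called there, where it fell by 0.62. Under amylin only Foxp2 was called, where it rose by 0.33. In wild type the means of the 15 microglial markers ran from 5.24 for Aif1 to 8.80 for Ctss. The part of cell types and of dissected regions in the differences below was not tested. In bulk tissue fewer cells of a type and less RNA per cell cannot be told apart.

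The core of the site that TFEB and its relatives bind, the E-box CACGTG, was looked for in the members' promoters, because the members differed in how they moved. A promoter here is the 250 bases before and the 50 bases after a gene start in RefSeq (GRCm38.p6), and 35 of the 37 members matched it by symbol. Of these 35, 9 held CACGTG (25.7%), against 8.09% of the 27025 genes in the promoter table and 9.50% of the 15614 genes that were also measured. The 9 were Gaa, Glb1, Sgsh, Naglu, Gla, Arsa, Cln3, Lamp1 and Mcoln1. All 9 also held the longer form TCACGTG on either strand, found in 4.29% of the genes of the table. Of the 9 members that rose in vehicle 5xFAD mice 1 held the motif (Naglu), the member that fell held it (Gaa), and of the 25 others with a promoter 7 held it. A match is a string of letters and not a shown binding site. The 250 bases before the start are printed for 5 members that span these cases, 5′ to 3′ on the gene's strand, with CACGTG and its flanking TCACGTG in capitals. Lamp1 has 4 matches and Lamp2, its relative in the same membrane, has none. Naglu rose with 1 match, Gaa fell with 1 and Gusb rose the most with none.
Lamp1, chr8:13158911-13159160, plus strand: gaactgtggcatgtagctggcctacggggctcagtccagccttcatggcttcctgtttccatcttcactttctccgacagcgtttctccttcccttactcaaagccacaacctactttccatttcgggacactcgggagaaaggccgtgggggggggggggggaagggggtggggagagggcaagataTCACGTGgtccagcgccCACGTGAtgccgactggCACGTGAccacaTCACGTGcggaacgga
Lamp2, chrX:38456461-38456710, minus strand: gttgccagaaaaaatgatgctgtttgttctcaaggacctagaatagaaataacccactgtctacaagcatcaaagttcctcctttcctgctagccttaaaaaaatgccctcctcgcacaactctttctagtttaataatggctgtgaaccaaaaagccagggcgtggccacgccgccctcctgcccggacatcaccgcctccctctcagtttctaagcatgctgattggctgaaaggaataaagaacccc
Naglu, chr11:101069844-101070093, plus strand: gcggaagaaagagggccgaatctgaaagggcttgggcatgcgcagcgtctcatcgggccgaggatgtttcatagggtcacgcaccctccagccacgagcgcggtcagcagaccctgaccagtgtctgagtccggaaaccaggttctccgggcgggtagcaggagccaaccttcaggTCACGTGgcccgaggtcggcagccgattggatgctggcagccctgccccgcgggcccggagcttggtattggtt
Gaa, chr11:119267713-119267962, plus strand: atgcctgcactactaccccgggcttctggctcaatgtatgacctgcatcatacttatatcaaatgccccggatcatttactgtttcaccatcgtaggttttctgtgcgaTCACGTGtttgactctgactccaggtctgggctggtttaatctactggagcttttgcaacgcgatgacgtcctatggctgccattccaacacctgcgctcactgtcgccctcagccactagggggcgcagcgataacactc
Gusb, chr5:130003050-130003299, minus strand: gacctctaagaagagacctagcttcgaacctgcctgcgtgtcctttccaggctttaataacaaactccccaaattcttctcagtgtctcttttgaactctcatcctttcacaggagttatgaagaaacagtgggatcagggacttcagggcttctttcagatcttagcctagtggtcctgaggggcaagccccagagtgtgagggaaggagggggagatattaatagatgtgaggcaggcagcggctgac
Counted from the gene start, CACGTG began at positions -61, -45, -28 and -15 in Lamp1, at -73 in Naglu and at -140 in Gaa.

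Vehicle 5xFAD mice were first set against wild type, a comparison of the genotypes without amylin. The region markers given above also differed between these arrays, and their part in the comparison was not tested. A minority of the lysosomal genes rose, by 1.27-fold to 2.15-fold, while most of the list, Lamp1 and Tfeb included, did not pass the test. Of the 37 members 9 rose (24.3%), against 3.66% of all genes, and 1 fell, against 4.92% of all genes. The 9 were Gusb, Man2b1, Hexa, Grn, Cd63, Naglu, Npc2, Lamp2 and Tpp1, and the 1 that fell was Gaa. The members' median log2 difference was 0.09, beside -0.01 over all genes, and the 27 members that were not called lay between -0.24 and 0.32. In 14 members every vehicle array was above every wild-type array and in 7 every one was below, against 11.2% and 15.6% of all genes. The mean difference was above 0 in 25 members, against 45.9% of all genes. The second comparison, of amylin-treated 5xFAD mice with wild type, shares the wild-type arrays with the first. There 6 members rose (16.2%), against 2.35% of all genes, and 0 fell, against 2.86% of all genes, with 2 members (Arsa and Idua) lower at an unadjusted p under 0.05. Over all genes 5.21% were called in either direction. In 10 members all amylin arrays lay above wild type and in 1, Sgsh, all lay below, against 10.8% and 12.3% of all genes (23.1% in either direction). The mean difference was above 0 in 20 members, against 45.9% of all genes. Most members were well expressed, and 35 of the 37 stayed when the 50% of genes with the lowest means were left out. In that fit 1788 of 9969 genes were called in either direction on vehicle, beside 1710 of 19938 in the main fit. Under amylin against wild type it was 1250, beside 1039. The part of expression level in the members' shares was not tested. The list was also chosen with earlier results of these data known.

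**Figure D1:**
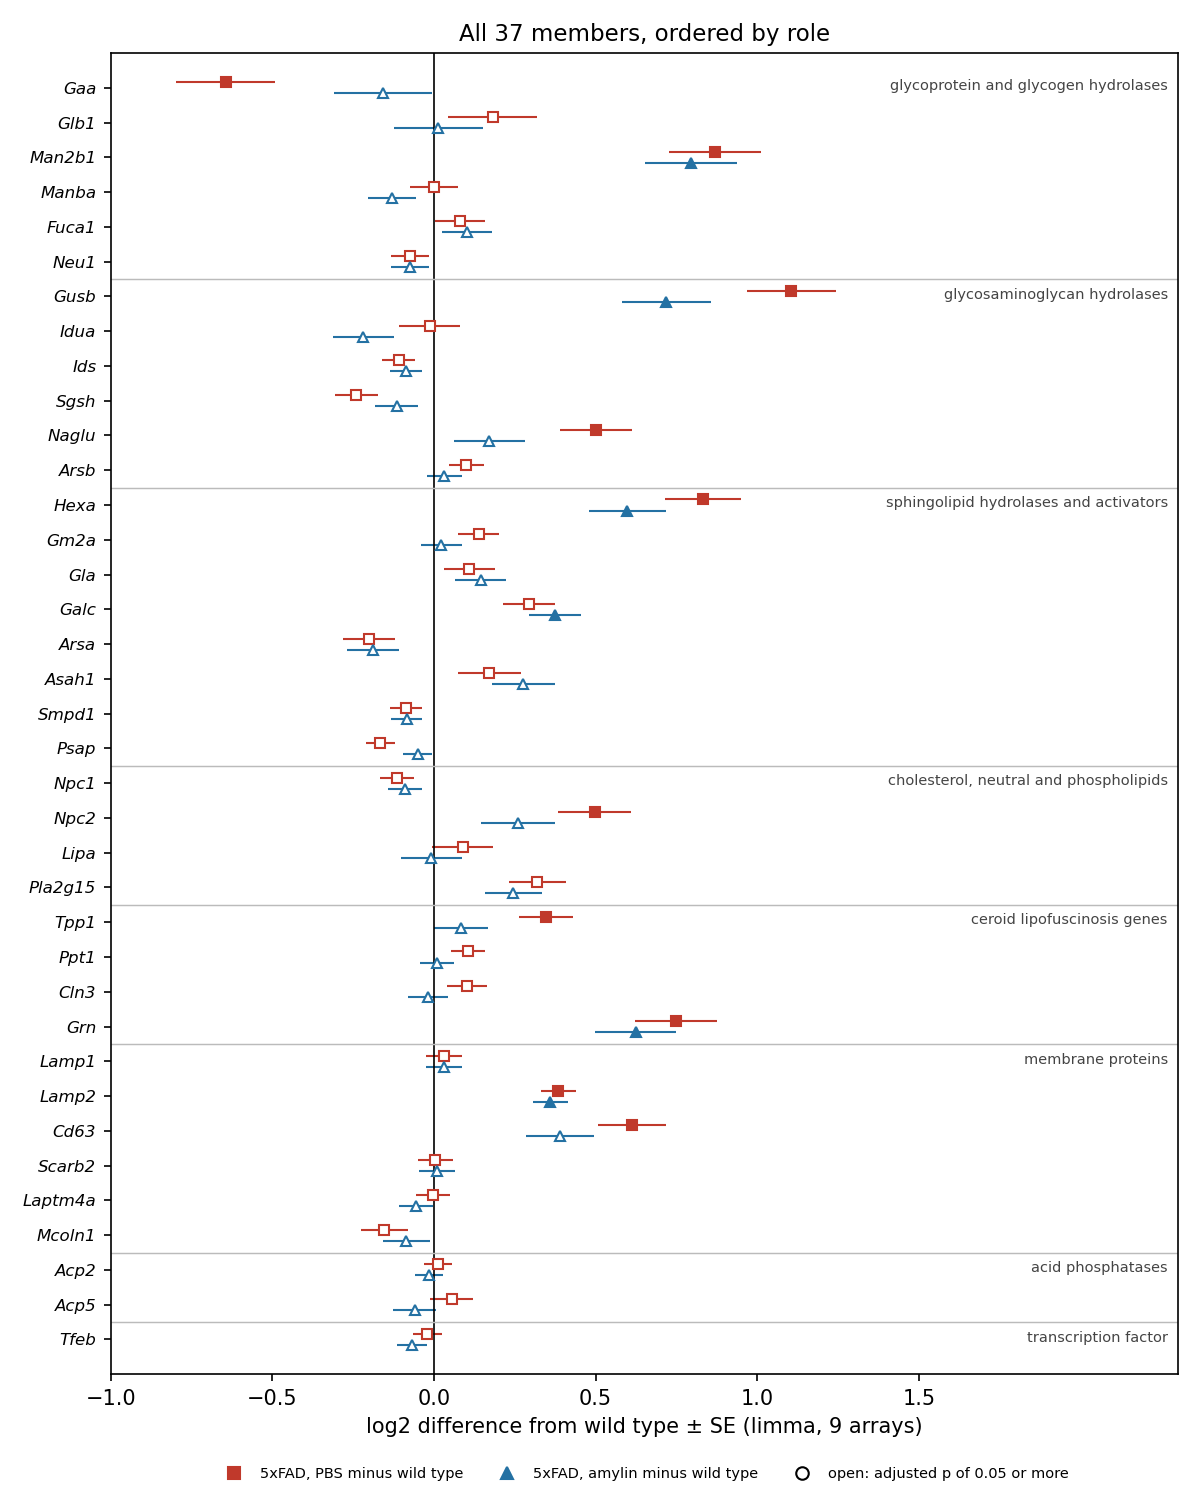
Log2 difference from wild type of each of the 37 members, ordered by role, for vehicle 5xFAD mice (squares) and amylin-treated 5xFAD mice (triangles), with the standard error of the limma fit. Filled symbols passed an adjusted p of 0.05: 10 members on vehicle, of which Gaa alone lies below 0, and 6 under amylin.

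Among hydrolases of glycoproteins and glycogen, 1 of 6 rose and 1 fell in vehicle 5xFAD mice. Man2b1 encodes the alpha-mannosidase that degrades N-glycans (probe set 10573583). Man2b1 read 7.44, 7.45 and 7.44 in wild type, 8.04, 8.42 and 8.48 in vehicle 5xFAD mice and 8.44, 8.35 and 7.92 under amylin. All 6 transgenic arrays lay above the wild-type arrays, and the lowest of them was amylin replicate 3. The difference on vehicle was 0.87 ± 0.14 log2 (SE), or 1.83-fold (adjusted p = 0.00609), and the call held without any single array. Gaa encodes acid alpha-glucosidase, which degrades glycogen (probe set 10383088). Gaa read 10.12, 9.78 and 10.06 in wild type, 9.54, 9.31 and 9.18 in vehicle 5xFAD mice and 9.50, 10.08 and 9.91 under amylin. The vehicle arrays were all below wild type, whereas the amylin arrays ranged from the vehicle level to the wild-type level. Gaa fell by 0.64 on the log2 scale on vehicle, or 1.56-fold (SE 0.15, adjusted p = 0.0307). Gaa was no longer called when wild-type replicate 1 or 3 was dropped (adjusted p = 0.127 and 0.106), when vehicle replicate 2 or 3 was dropped (0.0914 and 0.112), or once the mean of the olfactory bulb markers entered the model (0.118). Gaa was called in 13 of 19 alternatives, over which its adjusted p ran from 0.0101 to 0.127.

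The other 4 enzymes of this group were called in neither comparison with wild type. In wild-type, vehicle and amylin arrays, as mean ± SD (n = 3 each), Glb1 averaged 7.42 ± 0.023, 7.60 ± 0.16 and 7.44 ± 0.31. Glb1 encodes beta-galactosidase, and its amylin arrays spread from 7.09 to 7.70. Manba averaged 6.55 ± 0.057, 6.55 ± 0.11 and 6.42 ± 0.11, for beta-mannosidase. Fuca1 averaged 7.74 ± 0.13, 7.82 ± 0.10 and 7.84 ± 0.052, for alpha-fucosidase. The sialidase gene Neu1 averaged 7.34 ± 0.015, 7.26 ± 0.051 and 7.26 ± 0.098, and all its vehicle arrays lay below wild type.

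Among hydrolases of glycosaminoglycans, the long sugar chains of proteoglycans, 2 of 6 rose on vehicle and 0 fell (1 lower at an unadjusted p under 0.05). Gusb, beta-glucuronidase, had the largest difference of all members (probe set 10534102). Gusb read 6.84, 6.72 and 6.83 in wild type, 7.60, 8.22 and 7.88 in vehicle 5xFAD mice and 7.60, 7.60 and 7.34 under amylin. Its transgenic arrays did not overlap with wild type, and vehicle replicate 1 lay within the amylin range. Gusb rose by 1.11 ± 0.14 log2 (SE) on vehicle, or 2.15-fold (adjusted p = 0.00152), and the call held without any single array. Naglu encodes the alpha-N-acetylglucosaminidase of heparan sulfate breakdown (probe set 10381211). Naglu read 6.26, 6.16 and 6.36 in wild type, 6.51, 6.88 and 6.88 in vehicle 5xFAD mice and 6.26, 6.51 and 6.51 under amylin. The vehicle arrays were above wild type and the amylin arrays overlapped with both groups. Naglu rose by 0.50 ± 0.11 log2 on vehicle (adjusted p = 0.0228). Dropping wild-type replicate 1 or 2 (adjusted p = 0.0824 and 0.0842), or vehicle replicate 2 or 3 (0.0818 and 0.0896), ended the call, within 0.0053 to 0.0896 over 19 alternatives.

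The remaining 4 glycosaminoglycan enzymes did not pass on vehicle or under amylin. Sgsh, heparan sulfamidase, came nearest on vehicle (adjusted p = 0.0556, named after its values were seen), and it passed as lower in 3 of the 18 alternatives that kept it, with adjusted p from 0.0123 to 0.355. Sgsh averaged 6.41 ± 0.025, 6.17 ± 0.13 and 6.30 ± 0.046 in wild-type, vehicle and amylin arrays (SD, n = 3 each), and all its vehicle and amylin arrays were below wild type. Idua averaged 6.95 ± 0.091, 6.93 ± 0.14 and 6.73 ± 0.15, for alpha-iduronidase. Ids averaged 10.75 ± 0.05, 10.64 ± 0.03 and 10.67 ± 0.054, for iduronate sulfatase, with all vehicle arrays below wild type. Arsb averaged 9.73 ± 0.032, 9.83 ± 0.082 and 9.76 ± 0.04, for arylsulfatase B, with all vehicle arrays above wild type.

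Of 8 sphingolipid enzymes and activators 1 rose on vehicle and 2 rose under amylin. Hexa encodes the alpha subunit of beta-hexosaminidase A, which degrades GM2 ganglioside (probe set 10585874). Hexa read 8.58, 8.56 and 8.47 in wild type, 9.07, 9.51 and 9.52 in vehicle 5xFAD mice and 9.04, 9.30 and 9.06 under amylin. No transgenic array reached down to the wild-type range. Hexa rose by 0.83 ± 0.12 log2 (SE) on vehicle, or 1.78-fold (adjusted p = 0.00288), without losing the call when any single array was left out. Galc, galactosylceramidase, removes the galactose of myelin lipids (probe set 10401968). Galc read 6.49, 6.67 and 6.53 in wild type, 6.76, 6.89 and 6.92 in vehicle 5xFAD mice and 6.79, 7.05 and 6.97 under amylin. Both transgenic groups were above wild type and overlapped with each other. Galc differed by 0.29 ± 0.08 log2 on vehicle and missed the threshold (adjusted p = 0.0535). It passed there in 9 of 19 alternatives, whose adjusted p ran from 0.0195 to 0.195. Markers of oligodendrocytes, the cells rich in myelin lipids, had 2 of 9 lower on vehicle and 6 of 9 under amylin, and their mean was -0.25 to -0.08 on the vehicle arrays and -0.49 to -0.33 on the amylin arrays.

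Psap, the precursor of the saposins that present sphingolipids to their enzymes, differed little between arrays of a group. Psap read 11.61, 11.58 and 11.63 in wild type, 11.45, 11.48 and 11.40 in vehicle 5xFAD mice and 11.59, 11.53 and 11.55 under amylin. The vehicle arrays were lower than all arrays of both other groups. The difference of -0.17 ± 0.05 log2 on vehicle did not pass (adjusted p = 0.0539, 0.0198 to 0.187 over 19 alternatives, 5 of which passed). In wild-type, vehicle and amylin arrays (SD, n = 3 each), Gm2a averaged 9.43 ± 0.043, 9.57 ± 0.11 and 9.45 ± 0.062, for the GM2 activator. Gla averaged 7.63 ± 0.09, 7.74 ± 0.11 and 7.77 ± 0.11, for alpha-galactosidase A. Arsa averaged 6.87 ± 0.053, 6.66 ± 0.091 and 6.68 ± 0.15, for arylsulfatase A, with all vehicle arrays below wild type. Asah1 averaged 8.50 ± 0.022, 8.67 ± 0.034 and 8.77 ± 0.23, for acid ceramidase, whose vehicle arrays were all above wild type. Smpd1 averaged 9.29 ± 0.04, 9.20 ± 0.028 and 9.20 ± 0.058, for acid sphingomyelinase, whose vehicle arrays were all below wild type. Asah1 and Arsa each had an unadjusted p under 0.05 under amylin, and neither was called.

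Of the 4 genes that handle cholesterol, neutral lipids and phospholipids, 1 rose on vehicle. Npc2, a soluble protein that passes cholesterol on to the membrane protein NPC1, is the member concerned (probe set 10401519). Npc2 read 7.93, 7.79 and 7.61 in wild type, 8.03, 8.50 and 8.29 in vehicle 5xFAD mice and 8.03, 8.09 and 7.99 under amylin. The vehicle and amylin arrays were above wild type, and the lowest vehicle array shared its value with an amylin array. Npc2 rose by 0.50 ± 0.11 log2 (SE) on vehicle (adjusted p = 0.0269). With wild-type replicate 2 or 3 dropped (adjusted p = 0.0748 and 0.1), with vehicle replicate 2 or 3 dropped (0.073 and 0.0861), and with only the 2 groups compared in the fit (0.0744), it was not called (0.0085 to 0.1 over 19 alternatives). Npc1 averaged 8.93 ± 0.058, 8.81 ± 0.049 and 8.84 ± 0.047 in wild-type, vehicle and amylin arrays (SD, n = 3 each). Lipa averaged 8.53 ± 0.034, 8.62 ± 0.14 and 8.53 ± 0.18, for acid lipase, which frees cholesterol and fatty acids. Pla2g15 averaged 7.43 ± 0.0067, 7.75 ± 0.14 and 7.68 ± 0.15, for the lysosomal phospholipase, with both transgenic groups above wild type. Pla2g15 did not pass on vehicle (adjusted p = 0.0556, named after its values were seen), but it passed in 11 of 19 alternatives, with adjusted p from 0.00907 to 0.169.

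Among the 4 genes whose loss causes neuronal ceroid lipofuscinosis, a group of neurodegenerative storage diseases, 2 rose on vehicle. Grn encodes progranulin, a secreted glycoprotein that is processed in lysosomes (probe set 10381588). Grn read 8.50, 8.35 and 8.48 in wild type, 8.91, 9.37 and 9.29 in vehicle 5xFAD mice and 9.23, 9.10 and 8.87 under amylin. All 6 transgenic arrays were above wild type, and the highest amylin array lay inside the vehicle range. Grn rose by 0.75 ± 0.13 log2 (SE) on vehicle, or 1.68-fold (adjusted p = 0.00679), and stayed called without any single array. Tpp1 encodes a serine protease that removes tripeptides from the ends of proteins (probe set 10566529). Tpp1 read 8.82, 8.78 and 8.78 in wild type, 9.08, 9.35 and 8.99 in vehicle 5xFAD mice and 8.91, 8.91 and 8.81 under amylin. The vehicle arrays were above all arrays of both other groups. Tpp1 rose by 0.35 ± 0.08 log2 on vehicle (adjusted p = 0.0326). Dropping wild-type replicate 1, 2 or 3 ended the call (adjusted p = 0.0937, 0.095 and 0.102), as did dropping vehicle replicate 1 (0.054) or keeping only the 2 groups compared in the fit (0.0732), within 0.0173 to 0.102 over 19 alternatives. Ppt1 averaged 9.55 ± 0.012, 9.65 ± 0.072 and 9.56 ± 0.053, for palmitoyl-protein thioesterase, and all its vehicle arrays were above wild type. Cln3 averaged 7.01 ± 0.025, 7.12 ± 0.11 and 6.996 ± 0.058, for the membrane protein of juvenile Batten disease.

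Of the 6 membrane proteins 2 rose on vehicle, Lamp2 and Cd63, and 4 did not pass. Lamp1 and Lamp2 encode the abundant glycoproteins of the lysosomal membrane, and of the pair only Lamp2 was called. Lamp2 read 9.33, 9.40 and 9.35 in wild type, 9.71, 9.84 and 9.69 in vehicle 5xFAD mice and 9.69, 9.70 and 9.77 under amylin (probe set 10604187). The lowest transgenic array was higher than the highest wild-type array by more than the spread within any group. Lamp2 rose by 0.38 ± 0.05 log2 (SE) on vehicle, or 1.31-fold (adjusted p = 0.00282), and by 0.36 ± 0.05 under amylin (adjusted p = 0.00621), and both calls held in all 19 alternatives. Lamp1 read 10.28, 10.23 and 10.17 in wild type, 10.24, 10.26 and 10.27 in vehicle 5xFAD mice and 10.21, 10.36 and 10.20 under amylin (probe set 10570344). These groups overlapped, and the difference of 0.03 ± 0.06 log2 on vehicle did not pass (adjusted p = 0.842, 95% interval -0.09 to 0.15). The Lamp1 and Lamp2 intervals do not meet, since that of Lamp2 ran from 0.26 to 0.51, but the difference between both genes was not tested.

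Cd63, a tetraspanin of late endosomes, lysosomes and exosomes, was the other membrane protein that rose (probe set 10367436). Cd63 read 6.92, 6.96 and 7.07 in wild type, 7.42, 7.78 and 7.59 in vehicle 5xFAD mice and 7.18, 7.42 and 7.52 under amylin. All transgenic arrays were above wild type, with the lowest in amylin replicate 1. Cd63 rose by 0.61 ± 0.11 log2 on vehicle, or 1.53-fold (adjusted p = 0.00761), and the call held without any single array. The remaining 3 were called in neither comparison with wild type. In wild-type, vehicle and amylin arrays (SD, n = 3 each), Scarb2 averaged 9.24 ± 0.05, 9.25 ± 0.03 and 9.25 ± 0.078, for the receptor that carries glucocerebrosidase to lysosomes. Laptm4a averaged 10.04 ± 0.053, 10.04 ± 0.068 and 9.98 ± 0.031, for a small membrane protein. Mcoln1 averaged 9.23 ± 0.11, 9.07 ± 0.067 and 9.14 ± 0.099, for the cation channel TRPML1, through which lysosomes release calcium.

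Neither the acid phosphatases nor Tfeb were called. Acp2 averaged 9.003 ± 0.018, 9.02 ± 0.0075 and 8.99 ± 0.031 in wild-type, vehicle and amylin arrays (SD, n = 3 each). Acp5 averaged 5.47 ± 0.039, 5.52 ± 0.049 and 5.41 ± 0.13, for the tartrate-resistant enzyme of osteoclasts and macrophages. Tfeb read 6.57, 6.53 and 6.53 in wild type, 6.53, 6.51 and 6.53 in vehicle 5xFAD mice and 6.53, 6.42 and 6.47 under amylin (probe set 10445729). The Tfeb arrays of wild-type and vehicle mice overlapped, with a difference of -0.02 ± 0.05 log2 (adjusted p = 0.886, 95% interval -0.12 to 0.08). A transcript level does not report on the place of TFEB protein in the cell, through which its activity is known to be set.

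**Figure D2:**
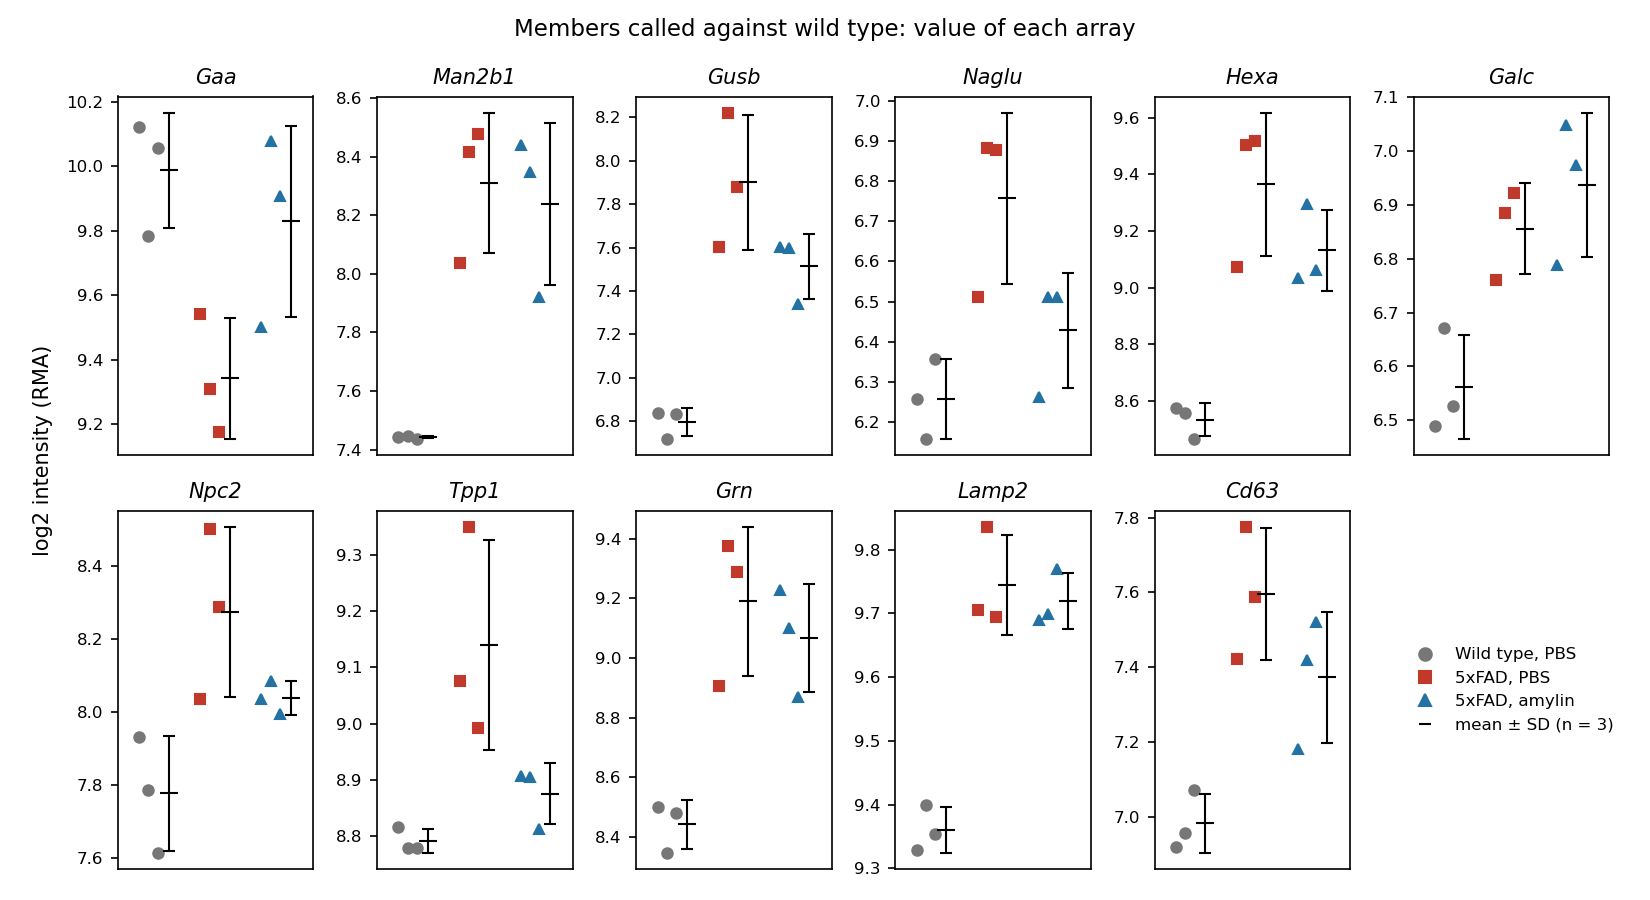
Log2 intensity on each array of the 11 members called against wild type on vehicle or under amylin, with the mean and SD of each group (n = 3). Each panel has its own axis, which does not start at 0. In Lamp2 the 6 transgenic arrays lie from 9.69 to 9.84, all above the wild-type arrays at 9.33 to 9.40, while in Naglu the amylin arrays reach down to 6.26, inside the wild-type range.

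Over the 9 members that rose, vehicle replicate 1 was the lowest of its group in 7 and vehicle replicate 2 the highest in 7. The mean of the microglial markers, relative to wild type, was 1.07 on vehicle replicate 1, 1.67 on replicate 2 and 1.59 on replicate 3. Under amylin replicate 3 was the lowest in 5 and replicate 1 in 4 of the 9, while replicate 1 was the highest in 4, replicate 2 in 3 and replicate 3 in 2, beside microglial marker means of 0.98, 1.43 and 1.07 on replicates 1, 2 and 3. The mean of the olfactory bulb markers was 1.82, 0.25 and 0.88 on vehicle replicates 1, 2 and 3. On amylin replicates 1, 2 and 3 it was 1.55, 0.62 and 1.70. In both groups replicate 2 had the lowest olfactory bulb mean and the highest microglial mean. The mean of all 37 members above wild type was 0.09, 0.23 and 0.15 on these vehicle arrays and 0.06, 0.16 and 0.09 on the amylin arrays. The part of microglial or olfactory bulb content in these differences between arrays was not tested.

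Under amylin the members called against wild type were Man2b1, Gusb, Hexa, Grn, Lamp2 and Galc. Of these, 5 were also called on vehicle, in a comparison with the same wild-type arrays, and Galc was not. The differences were 0.80 ± 0.14 log2 (SE) for Man2b1 (adjusted p = 0.013), 0.72 ± 0.14 for Gusb (adjusted p = 0.0171) and 0.60 ± 0.12 for Hexa (adjusted p = 0.0195). Grn rose by 0.62 ± 0.13 (adjusted p = 0.0216) and Galc, the myelin lipid enzyme, by 0.37 ± 0.08 (adjusted p = 0.0273). The lysosomal genes Naglu, Npc2, Tpp1 and Cd63, called on vehicle, differed from wild type by 0.17 ± 0.11, 0.26 ± 0.11, 0.08 ± 0.08 and 0.39 ± 0.11 under amylin, with adjusted p of 0.46, 0.251, 0.656 and 0.0685. Gaa stood at -0.16 ± 0.15 (adjusted p = 0.643). The count of 6 was lower when some single arrays were left out. It was 1 without wild-type replicate 1, 3 without wild-type replicate 2, 2 without wild-type replicate 3 and 2 without amylin replicate 2. Over all genes the calls in either direction fell too, from 1039 to 447, 602, 596 and 869 in the same fits. Man2b1 lost its call without wild-type replicate 1 (adjusted p = 0.0596), and the adjusted p of Gusb (up to 0.0676), Hexa (up to 0.0748), Grn (up to 0.0836) and Galc (up to 0.121) passed 0.05 without 5, 5, 5 and 4 of the 9 arrays.

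Amylin-treated and vehicle mice were then compared within the 5xFAD genotype. No lysosomal gene passed: by limma 0 of 37 members were called, with 2 higher and 3 lower at an unadjusted p under 0.05, and the smallest adjusted p was 0.664. Over all genes 1 was called (0.00502%) and 6.90% had an unadjusted p under 0.05. The members' median difference, amylin minus vehicle, was -0.05 log2, beside 0.00064 over all genes, and 14 members had higher means under amylin, against 50.3% of all genes. The groups did not overlap in Psap, higher under amylin, and in Tpp1, lower under amylin, against 5.49% of all genes higher and 3.81% lower.

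The 5 members with the smallest p in this comparison were Gaa, Tpp1, Naglu, Gusb and Psap. Gaa, the glycogen enzyme, was 0.49 ± 0.15 log2 (SE) higher under amylin (95% interval 0.14 to 0.83, adjusted p = 0.664), and amylin replicate 1 lay within the vehicle range. Tpp1, the tripeptide protease, differed by -0.26 ± 0.08 (interval -0.45 to -0.08, adjusted p = 0.664) and Naglu by -0.33 ± 0.11 (interval -0.58 to -0.08, adjusted p = 0.675). Gusb differed by -0.39 ± 0.14 (interval -0.69 to -0.08, adjusted p = 0.687) and Psap by 0.12 ± 0.05 (interval 0.01 to 0.22, adjusted p = 0.706). None of these passed in any of 19 alternatives, where the lowest adjusted p was 0.202, for Naglu. The comparison shares the vehicle arrays with the first, on which Gaa was low and the other genes but Psap were high, so the directions are not independent of the calls against wild type.

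Of the other members called against wild type, Hexa differed by -0.23 ± 0.12 log2 between amylin and vehicle (95% interval -0.50 to 0.03), Npc2 by -0.24 ± 0.11 (-0.49 to 0.02) and Cd63 by -0.22 ± 0.11 (-0.46 to 0.02). Grn differed by -0.12 ± 0.13 (interval -0.41 to 0.16) and Man2b1 by -0.07 ± 0.14 (interval -0.39 to 0.25), with Man2b1 at 0.0839 without amylin replicate 3 and 0.0109 without vehicle replicate 3. For Lamp2 the value was -0.03 ± 0.05 (interval -0.15 to 0.10; 0.0195 without vehicle replicate 2), for Galc 0.08 ± 0.08 (interval -0.10 to 0.26) and for Tfeb -0.05 ± 0.05 (interval -0.15 to 0.06). Lamp1 differed by -0.00055 (interval -0.12 to 0.12), a value whose sign turned in 6 of 19 alternatives, including when arrays were centred on their median. The adjusted p of these 9 genes was 0.737 or higher. The intervals of Lamp2, Lamp1 and Tfeb were the narrowest of these genes, whereas those of Gusb and Gaa reached -0.69 and 0.83. Tfeb held the identical value of 6.52709 in every group, and the part of such ties in its interval was not tested.

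**Figure D3:**
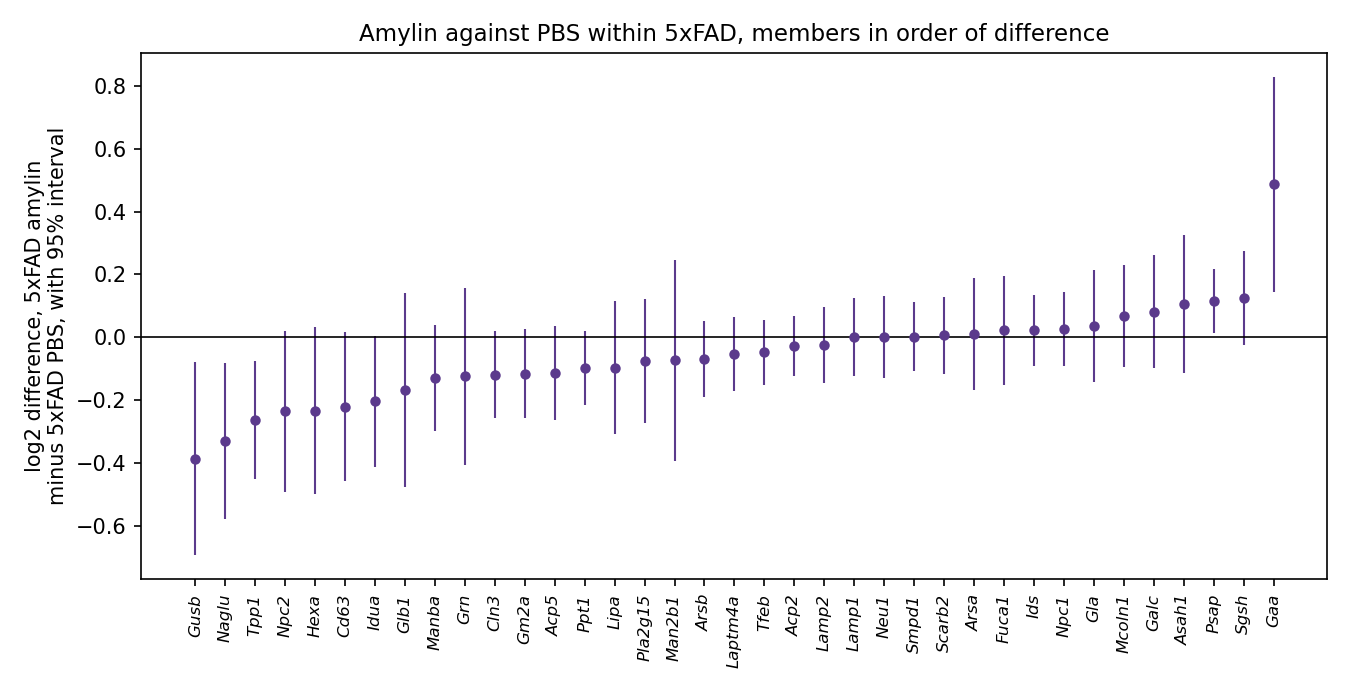
Log2 difference between amylin-treated and vehicle 5xFAD mice for the 37 members in order of size, with the 95% interval of the limma fit. Values run from -0.39 for Gusb to 0.49 for Gaa, and none passed an adjusted p of 0.05.

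Other lysosomal genes from lists drawn up beside the members gave mixed counts. Of 18 further hydrolases and cofactors measured, 4 rose and 1 fell on vehicle (list median 0.03). The 4 were Creg1 (0.44 ± 0.10 log2, SE), the asparaginyl protease legumain Lgmn (0.43 ± 0.09), the acid nuclease Dnase2a (0.34 ± 0.08) and the carboxypeptidase Scpep1 (0.33 ± 0.07), of which Creg1 and Dnase2a were named after their values were seen. Plbd2 fell by 0.33 on the log2 scale. Of 25 further lysosomal membrane proteins 2 rose and 1 fell (list median 0.01). Cd68, a macrophage sialoprotein, rose by 2.47 ± 0.15 and Laptm5, of blood cell lysosomes, by 1.32 ± 0.15. Both are also on the list of microglial markers. Abca2, a lipid transporter of oligodendrocytes and neurons, fell by 0.38 on the log2 scale.

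The proton pump, the delivery receptors and the autophagy genes were mostly not called. Of 18 subunits of the V-ATPase, which acidifies the lysosome, 1 rose on vehicle (Atp6v0d2, a subunit of osteoclasts and macrophages) and 1 fell (Atp6v0e2, by 0.40). Atp6v0d2 averaged 3.03 in wild type and 3.31 on vehicle, below the lower quartile of every array (4.03 to 4.12), so the size of its difference is uncertain. Their median was -0.05, and in 8 of 18 all vehicle arrays were below wild type, against 15.6% of all genes. Of 19 genes of sorting and enzyme delivery 0 rose and 2 fell, with 1 higher and 7 lower at an unadjusted p under 0.05 by limma. The sortilin gene Sort1 fell by 0.21 and Igf2r, the cation-independent mannose 6-phosphate receptor, by 0.20. The list median was -0.09, and in 8 of 19 all vehicle arrays were below wild type. Of 17 autophagy genes 0 rose and 2 fell, with 1 higher and 3 lower at an unadjusted p under 0.05 by limma. The 2 were the initiating kinase Ulk1 and the lipid scramblase Atg9a, both lower by 0.28 on the log2 scale. In 5 of 17 all vehicle arrays were below wild type. Over all genes 3.66% rose and 4.92% fell. At an unadjusted p under 0.05 by limma, 1816 of the 19938 genes were higher and 2413 lower on vehicle. Of 10 neuronal markers 4 fell on vehicle and 3 had a mean difference above 0, and the mean of that list was -0.14 to -0.10 on the vehicle arrays. On the amylin arrays it was -0.06 to 0.02, with 0 called and 1 higher and 4 lower at an unadjusted p under 0.05. By that p 1741 of the 19938 genes were higher and 2083 lower under amylin against wild type. The part of neuronal content in the lists above was not tested.

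Of 21 relatives of Tfeb and regulators of mTORC1 at the lysosome, 2 rose and 2 fell on vehicle, against 3.66% and 4.92% of all genes. Rragd, a Rag GTPase that recruits mTORC1 and TFEB to lysosomes, rose by 0.65 ± 0.09 log2 (adjusted p = 0.00226) and stood 0.71 ± 0.09 above wild type under amylin (adjusted p = 0.00223). Fnip1, a partner of folliculin, rose by 0.29 ± 0.08 on vehicle (adjusted p = 0.0497, named after its value was seen). The Rag GTPase gene Rragb fell by 0.35 and the mTORC1 inhibitor gene Tsc2 by 0.31 on the log2 scale. Between amylin and vehicle limma called 0 genes of these 6 lists. At an unadjusted p under 0.05, 4 were higher and 1 lower among the Tfeb relatives and mTORC1 regulators, 1 higher and 3 lower among the membrane proteins, and 1 higher and 2 lower among the V-ATPase subunits, with 0 in the other lists. The share over all genes at that p, in either direction, was 6.90%.

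**Figure D4:**
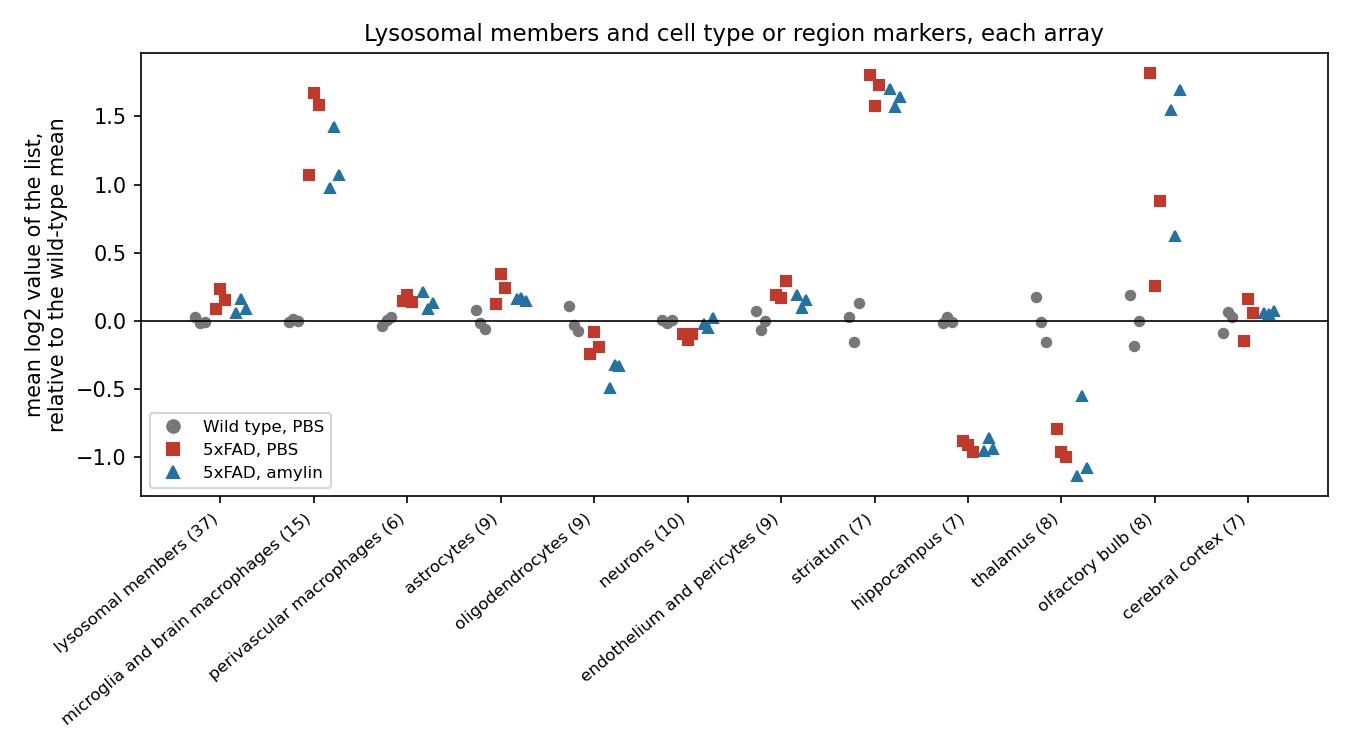
Mean log2 value on each array, relative to the wild-type mean, of the 37 lysosomal members and of the lists of cell type and region markers, with the number of measured genes in brackets. The members lie from 0.06 to 0.23 on the transgenic arrays and the microglial list from 0.98 to 1.67. The striatal, hippocampal, thalamic and olfactory bulb lists also separate the transgenic from the wild-type arrays. By smaller margins so do the astrocyte, oligodendrocyte, endothelial and perivascular macrophage lists, whereas the neuronal and cerebral cortex lists overlap.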

How the data were processed

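The authors deposited log2 intensities of 35556 probe sets on 9 arrays, normalised by RMA (R package oligo) per the submitters' processing notes, which give no versions. RMA corrects background, equalises the quantiles of the arrays and summarises probes, so a shift shared by most genes would be removed. Of the probe sets 21789 name 1 gene, 1621 several and 12146 none, and the highest single-gene probe set stood for each of 19938 genes. Entrez IDs of 21698 matched RefSeq (GRCm38.p6), which changed 0 symbols. The test was that of limma 3.58.1 (R 4.3.3) in 1 fit of 9 arrays with a mean per group and no trend (6 residual and 3.53 prior degrees of freedom), tested on simulated data. No gene was filtered out. The alternatives were 10 other settings and leaving out each of the 9 arrays. Full statistics are given for members called against wild type, the 5 members with the smallest p under amylin, and Lamp1, Tfeb, Npc2 and Grn, and of the other lists for up to 3 genes with the smallest p. The members and lists were chosen with earlier results of these data known. Npc1 and Asah1 had no promoter entry. Motifs were counted on both strands.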

Additional observations from a re-analysis of the deposited data

How the results depend on the processing

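Over 19 alternatives, the 9 summary results (members called higher, members called lower and the members' median, in each comparison) stayed close in 156 cases and moved in 15. The count of members that fell on vehicle, 1 in the report, was 3 on dropping the 25% of genes with the lowest means, 2 on dropping 50%, 2 under a trended and robust prior, 3 under array weights, 0 once olfactory bulb markers entered the model, and 0 to 2 when single arrays were left out. It was 0 without wild-type replicate 1 or 3 or vehicle replicate 3, and 2 without amylin replicate 1. The count that rose on vehicle, 9, was 6 to 11 without single arrays. The count that rose under amylin against wild type, 6, was 1 to 6 without single arrays, and the median of that comparison, 0.0092, was 0.0966 with the olfactory bulb term. Between amylin and vehicle 0 members were called in any of the 19.

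The replicate numbers pair no samples by the labels. Deviations of same-numbered vehicle and wild-type arrays correlated at 0.09, 0.18 and 0.06, those of amylin and vehicle arrays at 0.10, 0.13 and 0.12, and those of amylin and wild-type arrays at -0.06, -0.05 and 0.14. Each array correlated best with its own number between vehicle and wild type, and each amylin array with its own-numbered vehicle array, but vehicle replicate 1 correlated better with amylin replicate 3 (0.12). With the replicate block 11 members rose and 0 fell on vehicle, and 7 rose and 0 fell under amylin, and Gaa on vehicle had an adjusted p of 0.0564.

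For the 14 members with full statistics, 728 values kept direction and side of the threshold, 41 lost and 18 gained a call, and 11 changed sign. The sign changes were small: Lamp1 between amylin and vehicle (0.00604 with centred arrays, 0.0381 with array weights, 0.0152 with the olfactory bulb term, and -0.0504 to 0.027 without single arrays, including 0.0217 and 0.00638), Man2b1 there (-0.21 to 0.0839, including 0.0109), Lamp2 there (-0.0511 to 0.0195), and, against wild type under amylin, Gaa (-0.28 to 0.00622) and Lamp1 (-0.0197 to 0.0577). The cause of these changes was not tested. With 3 arrays a group, the median SE of a vehicle difference was 0.07 log2.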

Other observations

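Arsb has another probe set of its own, 10406672. It averaged 7.78 in wild type, 7.91 on vehicle and 7.89 under amylin. Its log2 difference on vehicle was 0.14 ± 0.07 (SE), beside 0.10 ± 0.05 for the probe set used. Neither passed, with adjusted p = 0.284 in a separate limma fit of all 21789 single-gene probe sets and 0.347 in the fit of genes.

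Oligodendrocyte markers were called more often under amylin than on vehicle against the same wild-type arrays, with 6 of 9 lower (Mag by 0.69, Opalin by 0.69, Mog by 0.49, Cnp by 0.44, Mbp by 0.27 and Olig1 by 0.26 on the log2 scale) against 2 of 9. Between amylin and vehicle 0 of the 9 were called by limma, with 3 lower at an unadjusted p under 0.05. Galc, which acts on myelin lipids, was higher than wild type on the same amylin arrays. These genes were named after their values were seen.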
